A study of Mus musculus with 18 samples.

Results

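The canonical histone genes were taken as the protein-coding rows of the deposited count table whose mouse symbol starts with Hist1h, Hist2h, Hist3h or Hist4h, which gave 67 of 54347 rows. They comprised 6 genes of the linker histone H1, 18 of H2A, 18 of H2B, 12 of H3 and 13 of H4. On the GRCm38 build 54 of them lay on chromosome 13, 10 on chromosome 3, 2 on chromosome 11 and 1 on chromosome 6. No expression value entered this choice.

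Histones H2A, H2B, H3 and H4 form the protein core around which DNA is wound in the nucleosome, and H1 binds the DNA between cores. The canonical genes are known to be transcribed mainly in S phase, when new DNA is packaged, and most lack introns. Their transcripts normally end in a stem-loop in place of a poly(A) tail, which is bound by the stem-loop binding protein Slbp and guides the 3′ cut and the decay of the RNA when replication stops, although some members are known to give spliced or polyadenylated RNA as well.

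Transcripts were measured by RNA-seq in mesenchymal stem cells (MSC) grown from the marrow of male C57BL/6J mice, with 3 libraries in each of 6 groups. In the first experiment the cells were untransfected and were left untreated (control), given CK666, which inhibits the Arp2/3 complex that branches actin filaments, or given cytochalasin D (CytoD), which caps actin filaments. All cells of the second experiment were transfected, either with a mock siRNA (siControl) or with one directed at Arp4 (siArp4), the nuclear actin-related protein encoded by Actl6a, or with the latter followed by CK666 (siArp4+CK666). A siControl+CK666 group was not analysed here. By the study's methods the cells were a primary line made from several mice, so that the replicate libraries are preparations of that line and do not stand for separate animals.

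Libraries held 18075610 to 24733212 estimated counts, and 12628 to 13321 genes reached a count of 10 in a library. Below, a normalized count is a count divided by the DESeq2 size factor of its library within its experiment, CPM is a count scaled to the total of its library, and a gene is called where its log2 fold change exceeds 1 in size and its DESeq2 adjusted p is below 0.01. Actl6a had 720.1, 1127 and 841 normalized counts in the siControl libraries, 48.8, 57.2 and 19.0 with siArp4 alone, and 9.52, 22.9 and 17.9 with siArp4+CK666. Every library of the second experiment thus fitted the siRNA in its label. These values do not check the CK666 or CytoD labels. The siControl libraries were spread: the summed level of 10 MSC markers was 1758, 727 and 1184 CPM in them, and the size factor of replicate 2 was 0.795. Over the 18 libraries the MSC markers summed to 698 to 1929.6 CPM, with Thy1 at 0 and Nt5e below a normalized count of 10 in every library. The 8 blood and macrophage markers summed to 7.41 to 19.6 CPM, with Ptprc, Itgam and Fcgr1 below a normalized count of 10 in every library. The 5 endothelial markers summed to 0.207 to 1.25 CPM with Cdh5 and Emcn at 0. In bulk RNA, fewer cells in S phase and less histone RNA per cell cannot be told apart.

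The members resemble each other so closely that reads can often not be given to 1 gene. Of the 67 members, 56 shared at least 20% of the 31-base words of their transcripts with another gene, and the median share was 60.2%. They numbered 1 of the 6 H1 genes, 17 of the 18 H2A genes, 16 of the 18 H2B genes, all 12 H3 genes and 10 of the 13 H4 genes. The 13 H4 genes encode 1 protein of 103 residues, the 12 H3 genes encode 2 distinct proteins, and the H2A and H2B genes encode 9 and 11, whereas each H1 gene encodes its own. Rows were merged where they shared at least 50% of the words of the row with fewer words, directly or through a chain of other rows, and the 67 rows then fell into 25 units. A long row such as Hist1h2ac or Hist1h2be therefore joined a unit through shorter rows although few of its own words were shared. The 11 members below the 20% share were Hist1h1a, Hist1h1b, Hist1h1c, Hist1h1d, Hist1h1t, Hist1h2ac, Hist1h2be, Hist1h4d, Hist2h2be, Hist2h4 and Hist4h4.

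A histone stem-loop was found in an annotated transcript of 46 members. The 6-base stem followed the class of histone: it was GGTCCT or GGCCCT in the H4 genes and GGCTCT in all others in which a stem-loop was found. The commonest form, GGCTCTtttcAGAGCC, was present in 26 members (3 H1, 10 H2A, 8 H2B and 5 H3), and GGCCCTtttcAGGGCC was present in 7, all of them H4. The stem-loops of 7 members are shown with 5 bases on either side as examples that cover these forms. They were read from GENCODE vM21 transcripts (GRCm38), and capitals mark the paired arms of the stem.
Hist1h2ac (chr13:23683472-23683497, minus strand): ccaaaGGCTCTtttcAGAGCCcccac
Hist1h2bg (chr13:23571838-23571863, plus strand): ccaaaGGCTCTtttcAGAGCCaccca
Hist1h1c (chr13:23739507-23739532, plus strand): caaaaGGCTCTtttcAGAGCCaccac
Hist1h3f (chr13:23544927-23544952, plus strand): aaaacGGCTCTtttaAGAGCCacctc
Hist1h4h (chr13:23531453-23531478, plus strand): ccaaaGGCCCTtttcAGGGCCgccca
Hist1h4i (chr13:22040961-22040986, minus strand): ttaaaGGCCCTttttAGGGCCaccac
Hist1h4j (chr13:21735432-21735457, plus strand): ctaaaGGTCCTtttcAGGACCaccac

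In these lines the arms are complementary in each sequence, and Hist1h4h, Hist1h4i and Hist1h4j show 3 of the 4 H4 forms found. Hist1h2bc had the highest mean normalized count of the members over the 18 libraries, although Hist1h1c was higher in control, CK666, CytoD and siControl. Hist1h2bc has 1 annotated transcript, which is spliced, and no stem-loop was found in it.

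Start sites also lay close together. Of the members, 13 pairs stood head to head with at most 1000 bases between their starts, 12 of these joined an H2A gene with an H2B gene, and the median distance was 267 bases. RefSeq promoters (GRCm38.p6) were found for 62 of 67 members. CCAAT, the box bound by NF-Y, was present on either strand of the 250 bases before the start in 51 of 62 members (82.3%) against 33.8% of 32851 promoters of all genes. TATAAA was present in 29 members (46.8%) against 12.4%. The octamer ATTTGCAT, the site of Oct1, was present in 14 members (22.6%) against 1.60%. These were 7 H2A and 7 H2B genes and no H1, H3 or H4 gene. The windows of close head-to-head partners overlap, so the same match can be counted for both genes. Within 100 bases of the start the octamer was found in 0 of 18 H2A promoters and 6 of 16 H2B promoters. Both strands were searched, and none of the 3 motifs contains another. The promoters of Hist1h2ac, Hist1h2bg, Hist1h4i and Hist1h1c serve as examples, with matches to the 3 motifs on either strand in capitals.
Hist1h2ac (chr13:23683960-23684198, minus strand): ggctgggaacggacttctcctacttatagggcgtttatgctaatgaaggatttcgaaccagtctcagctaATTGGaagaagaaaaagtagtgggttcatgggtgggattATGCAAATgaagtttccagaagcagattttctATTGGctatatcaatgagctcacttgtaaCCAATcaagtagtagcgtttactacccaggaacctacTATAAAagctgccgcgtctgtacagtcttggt
Hist1h2bg (chr13:23571221-23571395, plus strand): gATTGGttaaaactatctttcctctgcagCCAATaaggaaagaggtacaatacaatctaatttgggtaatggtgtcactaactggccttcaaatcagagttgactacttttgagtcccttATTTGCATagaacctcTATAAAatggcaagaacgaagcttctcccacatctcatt
Hist1h4i (chr13:22041363-22041612, minus strand): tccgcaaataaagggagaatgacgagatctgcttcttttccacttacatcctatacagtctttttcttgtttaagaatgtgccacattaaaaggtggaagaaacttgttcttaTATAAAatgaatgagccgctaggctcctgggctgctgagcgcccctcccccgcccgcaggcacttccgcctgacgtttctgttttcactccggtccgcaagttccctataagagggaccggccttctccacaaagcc
Hist1h1c (chr13:23738557-23738806, plus strand): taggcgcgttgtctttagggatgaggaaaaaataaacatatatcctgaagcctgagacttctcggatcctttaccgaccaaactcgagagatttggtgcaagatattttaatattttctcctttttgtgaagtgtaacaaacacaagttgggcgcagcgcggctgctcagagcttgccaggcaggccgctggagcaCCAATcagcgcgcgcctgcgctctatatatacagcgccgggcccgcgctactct

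The Hist1h2ac stretch is the DNA between Hist1h2ac and Hist1h2bc, which are transcribed away from each other with 250 bases between their annotated starts, and it holds 3 CCAAT matches, 1 TATAAA and 1 octamer. The Hist1h2bg stretch lies between Hist1h2ae and Hist1h2bg and holds 2 CCAAT matches, 1 TATAAA and 1 octamer. The Hist1h4i promoter holds 1 TATAAA and neither other motif, and the Hist1h1c promoter holds 1 CCAAT only.

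Most of the histone signal came from a few rows. Hist1h2bc and Hist1h1c together took 56.5% to 67.8% of all member counts in the libraries of the first experiment and 41.2% to 60.1% in the second. The 4 highest rows of each library, which were not the same rows in all libraries, together took 73.0% to 87.9%. Low counts were common: the mean normalized count was below 10 for 41 members in the first experiment, 31 in the second and 28 in both, and 7 members (Hist1h1t, Hist1h2aa, Hist1h2ba, Hist1h4m, Hist2h2ab, Hist2h2bb and Hist3h2ba) stayed below 1 in both. Per length of the longest transcript, control cells held 49.5 CPM per kb of Hist1h2bc, 47.1 of Hist1h1c, 22.8 of Hist2h2aa2, 6.16 of Hist3h2a and 5.83 of Hist1h4i.

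Summed by class, a total that does not depend on how reads were split within the class, H1 rows held 76.0 ± 6.52 CPM in control cells, H2A rows 33.5 ± 0.715, H2B rows 67.7 ± 1.57, H3 rows 10.1 ± 0.114 and H4 rows 7.23 ± 0.537 (mean ± SD, n = 3). All members together held 195 ± 6.44 CPM in control and 452 ± 78.2 CPM in siControl, 2.32 times as much. Every siControl library lay above every control library for H1, H2A, H2B and H4 sums, with ratios of means of 1.70, 4.88, 1.82 and 3.50, whereas the H3 sums overlapped at a ratio of 1.05. The transfection and the experiment cannot be told apart in this step, and it was not tested. The summed level of 9 RNAs that are known to lack a poly(A) tail was also higher in siControl, at 16.0 to 28.7 CPM against 2.14 to 3.00 CPM in control, with Terc, Rny1, Rny3 and Rnu12 at 0 in all libraries. Its part in the histone step was not tested.

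**Figure D1:**
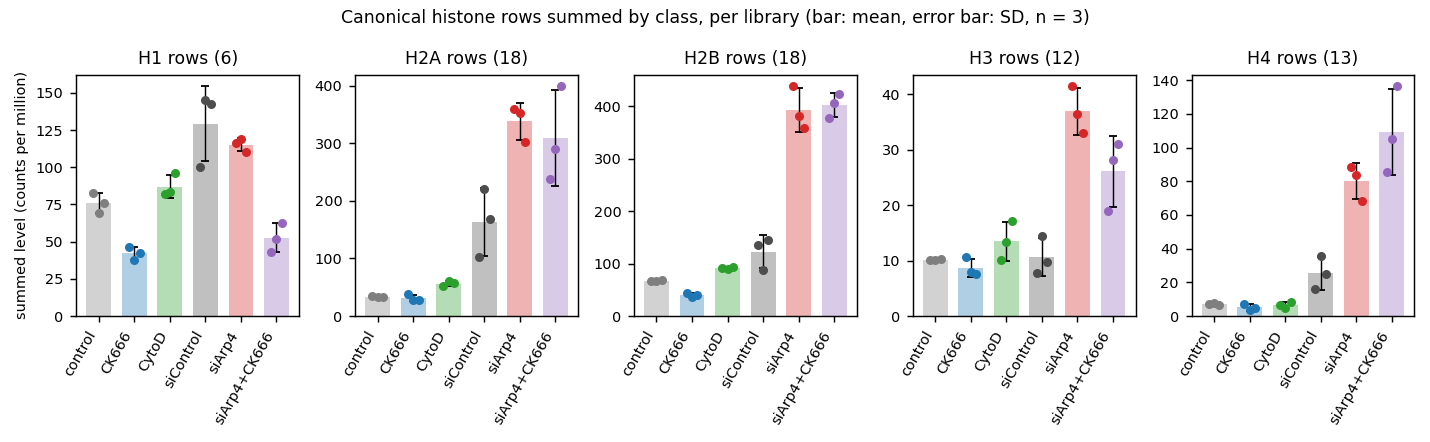
Summed level of the canonical histone rows by class (vertical axis, CPM), with a point for each library and bars for the mean ± SD of 3 libraries. The 3 siArp4 libraries lie above the 3 siControl libraries for H2A, H2B (359 to 439 against 87.3 to 146), H3 and H4 but not for H1.

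The siArp4 against siControl comparison asks which genes respond to loss of Arp4. Rows of every histone class rose in the knockdown. Of 55 members tested, 18 rose (32.7%) and none fell, against 6.69% of all tested genes called higher and 9.49% called lower. The median log2 fold change of the tested members was 1.39, against −0.05 over all genes, and 27 members had an unadjusted p below 0.05. All 3 siArp4 libraries lay above all 3 siControl libraries in 25 members and below them in 3, where 22.3% and 21.1% of all genes did so. The sum over all members was 2.13 times as high, at 964 ± 86.8 against 452 ± 78.2 CPM, without overlap.

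Among the H2B genes 5 of 14 tested rose. Hist1h2bc (chr13:23684199-23692908, plus strand) held 2226, 1952 and 2675 normalized counts in siControl and 8161, 7086 and 6505 in siArp4. The groups did not overlap, with a log2 fold change of 1.67 ± 0.18 (SE, DESeq2 adjusted p = 2.28e-18). Hist1h2be (chr13:23583670-23621124, minus strand) went from 41.1, 51.6 and 51.4 to 234, 275 and 230.4 normalized counts, a log2 fold change of 2.37 ± 0.26, although its exons overlap those of Hist1h1e on the same strand. Hist1h2bg (chr13:23571396-23572013, plus strand) held 46.1, 22.6 and 46.7 normalized counts in siControl and 161, 177 and 192 in siArp4, again without overlap (log2 fold change 2.17 ± 0.28). The H2B rows without Hist1h2bc still summed to 3.36 times as much in siArp4, at 44.0 ± 2.84 against 13.1 ± 2.0 CPM.

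The rows Hist1h2bq and Hist1h2br show how near-identical copies behave. Hist1h2bq shared 98.3% of its words with Hist1h2br. Hist1h2br held 381, 38.9 and 269.5 normalized counts in siArp4 while Hist1h2bq held 31.2, 267 and 10.02, so that each was high where the other was low. Their sum was 46.1, 37.7 and 30.8 in siControl and 412, 306 and 279.5 in siArp4, which did not overlap. Hist1h2br alone was called at a log2 fold change of 3.02 although its siArp4 replicate 2 overlapped siControl, and Hist1h2bq alone was not called (3.37 ± 1.26, DESeq2 adjusted p = 0.0259). The last H2B row called, Hist1h2bp, had a log2 fold change of 2.15 ± 0.69 and a mean of 10.9 normalized counts. The call of Hist1h2br was lost without siArp4 replicate 1 or 3 or any siControl library (DESeq2 adjusted p up to 0.0539), and that of Hist1h2bp without any library of either group and without siArp4+CK666 replicate 1 or 3 (up to 0.0535).

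Of the H2A genes 3 of 15 tested rose. Hist1h2ac (chr13:23681467-23683948, minus strand), which shared only 16.9% of its words with other genes, went from 41.9, 34.0 and 32.7 to 116, 119.9 and 138 normalized counts (log2 fold change 1.78 ± 0.25, DESeq2 adjusted p = 4.42e-11). Hist1h2ad went from 4.19, 6.29 and 8.41 to 26.9, 44.3 and 32.1, a log2 fold change of 2.46 ± 0.56, and Hist1h2ae had a log2 fold change of 1.61 ± 0.45, a call that was lost without siControl replicate 1 or any siArp4 library (DESeq2 adjusted p up to 0.0204). The groups did not overlap in Hist1h2ac or Hist1h2ad. Hist3h2a on chromosome 11 was higher in all 3 siArp4 libraries, at 1656, 1611 and 1542 against 713, 1169 and 929 normalized counts, but its log2 fold change of 0.78 ± 0.22 was below the fold minimum (DESeq2 adjusted p = 1.76e-03).

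The H2A rows with the highest means over the second experiment, Hist2h2aa1 and Hist2h2aa2 on chromosome 3, could not be read apart. All of their words were shared with each other or with overlapping predicted genes. Hist2h2aa1 held 26.0, 4308 and 2349.8 normalized counts in siControl while Hist2h2aa2 held 1027, 0 and 0. In siArp4 the values were 1844, 4804 and 216 for Hist2h2aa1 and 3699.6, 692 and 4119.8 for Hist2h2aa2. Summed, the pair held 1053, 4308 and 2349.8 in siControl and 5544, 5496 and 4336 in siArp4, all siArp4 libraries above all siControl libraries by a narrow margin, with a log2 fold change of 0.998 ± 0.46 for the merged rows that was not called (DESeq2 adjusted p = 0.0763). The predicted genes Gm20628, Gm20632, Gm20633 and Gm20634, which share that sequence, summed to 669.8, 968 and 728 in siControl and 1780.3, 2012 and 1658 in siArp4.

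The H3 genes had the largest share called, 5 of 10 tested. Hist1h3f rose from 3.35, 5.03 and 2.80 to 42.1, 23.8 and 17.0 normalized counts, a log2 fold change of 2.93 ± 0.67 at low counts. Hist2h3c2 rose from 24.3, 196 and 93.4 to 519, 520.5 and 399 (2.20 ± 0.58), and the siControl libraries differed among themselves by more than they did in Hist1h2bc. Hist1h3d, Hist1h3b and Hist1h3i rose with log2 fold changes of 2.44, 2.35 and 1.94. The call of Hist1h3i was lost without siControl replicate 1 or 2 or siArp4 replicate 2 or 3 (DESeq2 adjusted p up to 0.0369). Summed over the class, H3 rows held 10.6 ± 3.48 CPM in siControl and 37.0 ± 4.24 CPM in siArp4, a ratio of 3.48.

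Of the H4 genes, which all encode the same protein, 4 of 11 tested rose. Hist1h4h went from 59.5, 215 and 71.0 to 519, 473 and 368 normalized counts (log2 fold change 1.98 ± 0.47), and Hist1h4i from 158, 592 and 335 to 1005, 1024 and 818 (1.39 ± 0.42, DESeq2 adjusted p = 3.93e-03). In both rows siControl replicate 2 was the highest of its group and yet lay below every siArp4 library. Hist1h4n and Hist1h4j rose with log2 fold changes of 2.35 and 1.79. The call of Hist1h4i was lost without siControl replicate 3 or without any of the siArp4 libraries (DESeq2 adjusted p up to 0.0279).

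Among the linker histones Hist1h1d rose from 55.3, 50.3 and 71.0 to 177, 175 and 182 normalized counts (log2 fold change 1.59 ± 0.22, DESeq2 adjusted p = 1.44e-11) and was the only H1 gene called of 5 tested. Hist1h1c (chr13:23738808-23740367, plus strand), by far the most abundant H1 gene, held 1755, 3638 and 2792 in siControl and 2189.6, 2265 and 2029.9 in siArp4, which overlapped (−0.34 ± 0.30, DESeq2 adjusted p = 0.422). The H1 sum therefore overlapped, at 129 ± 25.2 and 115 ± 4.40 CPM, whereas H1 without Hist1h1c held 3.91 ± 0.972 and 11.2 ± 0.400 CPM.

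**Figure D2:**
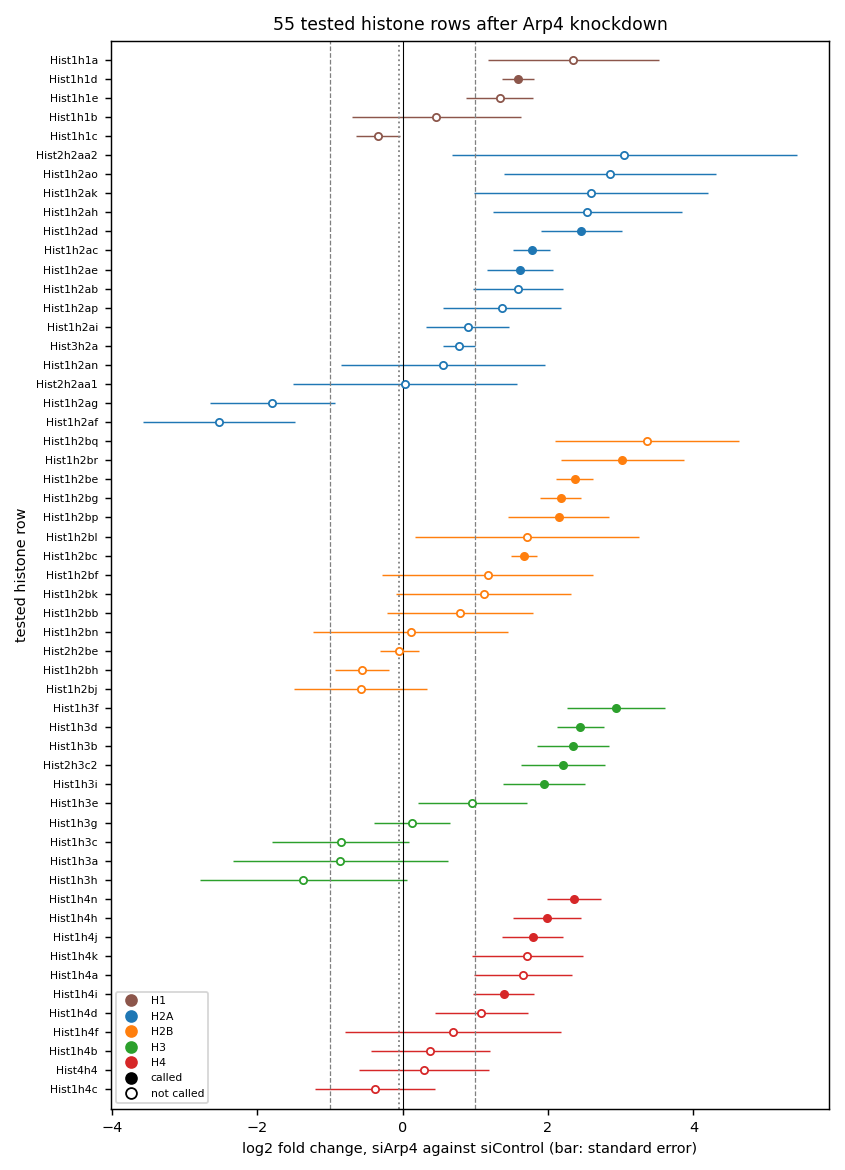
Log2 fold change of siArp4 against siControl for the 55 tested histone rows with standard errors, filled where called. The 18 called rows all lie to the right of 0, and Hist1h1c lies at −0.34.

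Because 15 of the 18 called rows were near-identical copies, the test was repeated on the 25 merged units. Of all 15391 rows tested in that fit, 1028 were called higher and 1460 lower. Of 17 units tested 7 rose and none fell. They were the unit of 14 Hist1 H2B rows (log2 fold change 1.71), Hist1h1d (1.59), the unit of 7 Hist1 H4 rows (1.55), the unit of 12 Hist1 H2A rows (1.29), the unit of 9 Hist1 H3 rows (1.38), Hist1h4m with Hist1h4n (2.36) and the unit of 3 Hist2 H3 rows (1.96). Each core histone class thus kept at least 1 called unit. The edgeR quasi-likelihood test called 12 of 40 rows higher, against 751 of 13415 genes. Without siControl replicate 1, 2 or 3 there were 15 of 47, 17 of 48 and 15 of 43. Of all genes 1354 of 14202, 984 of 14375 and 871 of 13916 were then called higher. Mitochondrial genes took 1.30% to 2.65% of counts in siControl and 2.67% to 3.26% in siArp4, and the part of this shift in the result was not tested. The 9 RNAs known to lack a poly(A) tail overlapped, at 16.0 to 28.7 CPM in siControl and 14.2 to 19.7 CPM in siArp4, and the 8 blood and macrophage markers overlapped as well, at 8.13 to 14.8 and 8.29 to 9.02 CPM. The 5 endothelial markers were higher without overlap, at 0.434 to 0.606 CPM in siArp4 against 0.231 to 0.317 CPM in siControl, mostly from Kdr, while Cdh5 and Emcn were at 0, and their part in the result was not tested.

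**Figure D3:**
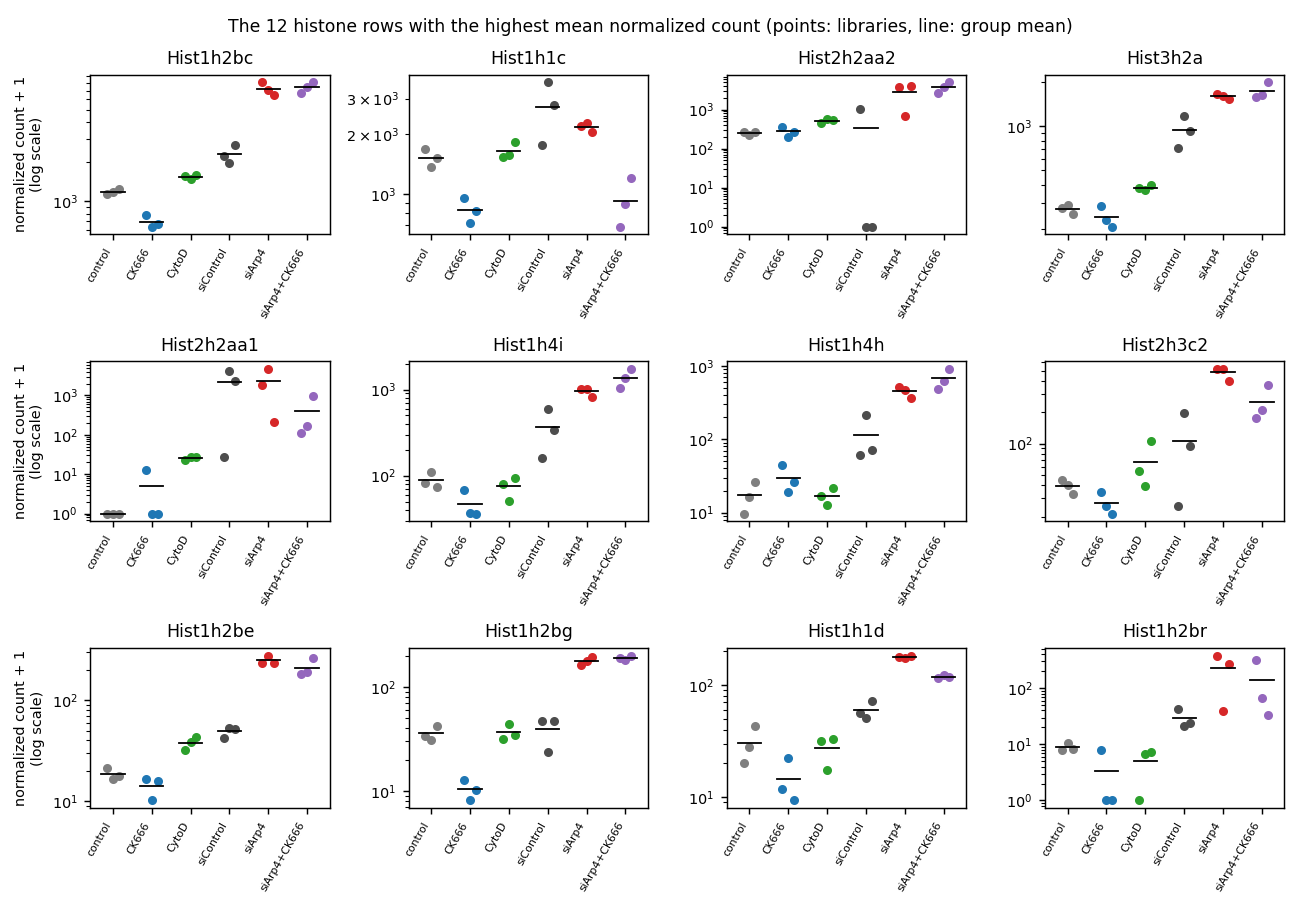
Normalized counts plus 1 on a log scale in each library for the 12 members with the highest mean, with a line at each group mean. Hist1h2bc lies between 6505 and 8161 in siArp4 against 1952 to 2675 in siControl, while Hist2h2aa1 and Hist2h2aa2 scatter from 0 to 4308 within siControl.

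Knockdown cells given CK666 as well (siArp4+CK666) were compared with the same siControl libraries, so these values stand beside the ones above and are not independent of them. Of 55 members tested 15 rose and 2 fell, against 8.06% of all genes called higher and 12.4% called lower. The rises were 3 H2A, 4 H2B, 4 H3 and 4 H4 rows. The median log2 fold change was 1.25. All siArp4+CK666 libraries lay above siControl in 22 members and below in 5, where 21.4% and 21.7% of all genes did so. The sum over members was 899.8 ± 145 CPM, 1.99 times siControl. The endothelial markers summed to 1.05 to 1.25 CPM, again above siControl, with Kdr called at a log2 fold change of 2.67 and Cdh5 and Emcn at 0, and their part was not tested. Mitochondrial genes took 2.86% to 3.36% of counts, also above every siControl library, and the part of this shift was not tested.

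Hist1h2bc held 6706, 7400.0 and 8062 normalized counts in siArp4+CK666 (log2 fold change against siControl 1.69 ± 0.18, DESeq2 adjusted p = 3.51e-19). Hist1h4h held 492, 619 and 922 (2.57 ± 0.47) and Hist1h4i 1028, 1347 and 1747 (1.93 ± 0.42). Hist1h2ad held 38.1, 48.6 and 87.5 (3.21 ± 0.55) and Hist1h3f 19.0, 23.8 and 36.9 (2.87 ± 0.68). In these 5 rows no siArp4+CK666 library overlapped siControl. The largest rise, of Hist1h2bq (4.61 ± 1.26), rests on 40.2, 330.0 and 357 normalized counts against 5.03, 17.6 and 7.47, and the call was lost without siControl replicate 3 or without siArp4+CK666 replicate 3 (DESeq2 adjusted p up to 0.0153). Together with Hist1h2br it summed to 357, 396 and 389.9. Hist1h3d, Hist1h2bg, Hist1h3b, Hist1h2be, Hist1h4n, Hist1h2ac, Hist1h2ae, Hist1h3i, Hist1h2bc and Hist1h4j rose with log2 fold changes from 2.54 down to 1.47. The call of Hist1h3i was lost without any of the 9 libraries (DESeq2 adjusted p up to 0.0605), and that of Hist1h4j without siControl replicate 1 or 2 or any siArp4+CK666 library (up to 0.0239). Hist2h2aa1 and Hist2h2aa2 summed to 2841, 3975 and 6127, which overlapped siControl.

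Of the members that fell, Hist1h1c was the well-measured one, at 685, 887 and 1195 normalized counts in siArp4+CK666 against 1755, 3638 and 2792 in siControl (log2 fold change −1.56 ± 0.30, DESeq2 adjusted p = 2.23e-06). Hist1h2af, an H2A gene that shares 94.3% of its words, held 3 counts over the 3 siArp4+CK666 libraries against 54 in siControl, a ratio of 17.3 with a 95% interval of 5.62 to 86.6 that covers counting error only, and its call was lost without any siControl library or without siArp4+CK666 replicate 1 or 2 (DESeq2 adjusted p up to 0.0384). Hist1h1d was at 115, 122 and 117, above siControl in every library, with a log2 fold change of 0.998 that did not reach the fold minimum. On merged units 5 rose and 1 fell of 17, against 1234 higher and 1905 lower of 15391 rows. The unit that fell was Hist1h1c.

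Within the knockdown, siArp4+CK666 against siArp4 asks what CK666 adds. Of 44 members tested none rose and 1 fell, against 1.63% of all genes called higher and 4.12% called lower, with a median log2 fold change of −0.24, and DESeq2 gave an unadjusted p below 0.05 for 4. The edgeR test called none of 40, against 115 genes higher and 351 lower of 13415. The 1 that fell was Hist1h1c, from 2189.6, 2265 and 2029.9 to 685, 887 and 1195 normalized counts (−1.23 ± 0.30, DESeq2 adjusted p = 8.41e-04), a call that was lost without replicate 1 or 2 of either group (DESeq2 adjusted p up to 0.0185). Hist1h2bc was at 0.03 ± 0.18 (DESeq2 adjusted p = 0.966). H1 sums were 52.6 ± 9.71 against 115 ± 4.40 CPM without overlap, and H3 sums were 26.1 ± 6.36 against 37.0 ± 4.24 CPM, also below without overlap, while H2A, H2B and H4 sums overlapped. The MSC markers were below siArp4 as well, at 698 to 1015 against 1187 to 1339 CPM. The endothelial markers were above it, at 1.05 to 1.25 against 0.434 to 0.606 CPM. The part of either marker set in the result was not tested.

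In untransfected cells, CK666 against control asks what inhibition of the Arp2/3 complex does. Of 45 members tested none rose and 2 fell (4.44%), against 4.89% of all genes called higher and 6.06% called lower, so the share of called members was near the background. The median log2 fold change was −0.72 against 0.01 over all genes, 35 of 45 were negative, and all 3 CK666 libraries lay below control in 9 and above it in none, where 23.4% and 24.1% of all genes did so. At an unadjusted p below 0.05 there were 9 members. The edgeR test called 1 of 32 lower, against 755 of 13308 genes.

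The 2 called rows were Hist1h2bg, at 32.9, 30.2 and 41.4 normalized counts in control and 11.8, 7.14 and 9.30 with CK666 (log2 fold change −1.88 ± 0.45, DESeq2 adjusted p = 1.55e-04), and Hist1h2ac, at 21.3, 21.4 and 36.2 and then 12.8, 6.12 and 8.37 (−1.53 ± 0.47, DESeq2 adjusted p = 4.33e-03). Neither pair of groups overlapped. On merged units 0 of 14 tested were called, against 714 higher and 883 lower of 14573 rows. The call of Hist1h2ac was lost without control replicate 3, without CK666 replicate 2 or 3, and without any CytoD library (DESeq2 adjusted p up to 0.0602). The abundant rows were lower by less than the fold minimum but with small errors. Hist1h2bc went from 1134, 1183 and 1232 to 788, 637 and 665 (−0.76 ± 0.11, DESeq2 adjusted p = 1.59e-10). Hist1h1c went from 1681, 1366 and 1506 to 951, 713 and 816 (−0.88 ± 0.14, DESeq2 adjusted p = 1.14e-08). H1 sums were 42.1 ± 4.43 against 76.0 ± 6.52 CPM and H2B sums 40.4 ± 4.17 against 67.7 ± 1.57 CPM, both without overlap, while H2A, H3 and H4 sums overlapped.

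CytoD against control asks what capping of actin filaments does. Of 35 members tested 1 rose and none fell, against 4.80% of all genes called higher and 4.32% called lower, with a median log2 fold change of 0.08. CytoD libraries lay above control in 8 members and below in 3, where 28.9% and 30.0% of all genes did so. The row called, Hist2h2aa2, held 453, 564 and 529 normalized counts against 267, 217 and 263 (1.05 ± 0.22, DESeq2 adjusted p = 1.23e-05), and the call was lost without control replicate 2 or CytoD replicate 2, where the log2 fold change was as low as 0.96. Its copy Hist2h2aa1 held 22.3, 27.1 and 25.8 with CytoD and 0 in each control library, and the merged rows gave 1.12 (DESeq2 adjusted p = 5.26e-06). Hist1h2bc held 1554, 1484 and 1575 (0.38 ± 0.11) and Hist3h2a 379, 367 and 397 against 278, 290.2 and 251 (0.48 ± 0.16), both above control in every library and below the fold minimum. The blood and macrophage markers summed to 18.1 to 19.6 CPM with CytoD and 10.9 to 13.9 CPM in control, and their part in the result was not tested.

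CK666 and CytoD were also set directly against each other. Of 49 members tested 6 were lower with CK666 and none higher, against 6.74% of all genes called lower and 5.08% called higher, and CK666 libraries lay below CytoD libraries in 18 members and above them in none, where 25.1% and 24.2% of all genes did so. Hist1h2ac (−2.59 ± 0.46), Hist1h2bg (−1.94 ± 0.45), Hist1h2be (−1.48 ± 0.44), Hist2h3c2 (−1.33 ± 0.43) and Hist1h2bc (−1.14 ± 0.11) were 5 of these. Hist1h2ac stood at 54.2, 51.3 and 58.7 normalized counts with CytoD, the highest of the 3 groups, and Hist1h2be at 30.8, 37.8 and 42.2 against 15.7, 9.17 and 14.9 with CK666. The sixth, Hist1h2ad, was at 0 in every CK666 library and at 3.19, 10.6 and 16.5 with CytoD, at least 3.45-fold lower against a floor of 3 counts in each library. Only Hist1h2bc, Hist1h2ac and Hist1h2bg kept this call whichever library was left out. It was lost for Hist1h2be without replicate 2 or 3 of either treatment (DESeq2 adjusted p up to 0.0332), for Hist2h3c2 without any control library, CK666 replicate 2 or 3 or CytoD replicate 1 or 3 (up to 0.126), and for Hist1h2ad without any CK666 library or CytoD replicate 2 or 3 (up to 0.0106). All histone members together summed to 127 ± 17.7 CPM with CK666 and 256 ± 14.7 CPM with CytoD, a ratio of 0.499. The blood and macrophage markers were lower with CK666 as well, at 8.72 to 11.9 against 18.1 to 19.6 CPM, a ratio of 0.540, and 2 of 4 tested were called lower, with Ptprc, Itgam and Fcgr1 at 0 in at least 5 of these 6 libraries. Their part in the result was not tested.

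The difference between the CK666 effect in knockdown cells and in untransfected cells was tested as an interaction over the 18 libraries, in which the knockdown, the transfection and the experiment cannot be told apart. Of 40 members tested 3 were called positive and none negative, against 1.90% and 2.52% of all genes, with a median of 0.39. In Hist1h2bg the CK666 effect was −1.88 ± 0.45 without knockdown and 0.11 ± 0.25 with it, a difference of 1.99 ± 0.42 (DESeq2 adjusted p = 6.72e-05). In Hist1h2ac it was −1.53 ± 0.47 without and 0.14 ± 0.22 with it, a difference of 1.66 ± 0.42 (DESeq2 adjusted p = 1.63e-03) that was not called without control replicate 3 or CK666 replicate 2 or 3 (DESeq2 adjusted p up to 0.0268). In Hist1h2ad the difference of 5.57 ± 1.58 (DESeq2 adjusted p = 6.25e-03) rests on a CK666 group at 0 and on control values of 0, 2.92 and 12.4, and it was not called without control replicate 3, any CK666 library, siArp4 replicate 1 or 3, or siArp4+CK666 replicate 2 or 3 (DESeq2 adjusted p up to 0.148). Hist1h2bc differed by 0.79 ± 0.19, below the fold minimum, and Hist1h1c, which was lower with CK666 in both settings, by −0.35 ± 0.35 (DESeq2 adjusted p = 0.589). On merged units none was called, and the unit of Hist1 H2B rows had a difference of 0.81 ± 0.19 (DESeq2 adjusted p = 4.33e-04). The edgeR test called 1 row of 42 positive, against 158 of 14178 genes.

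**Figure D4:**
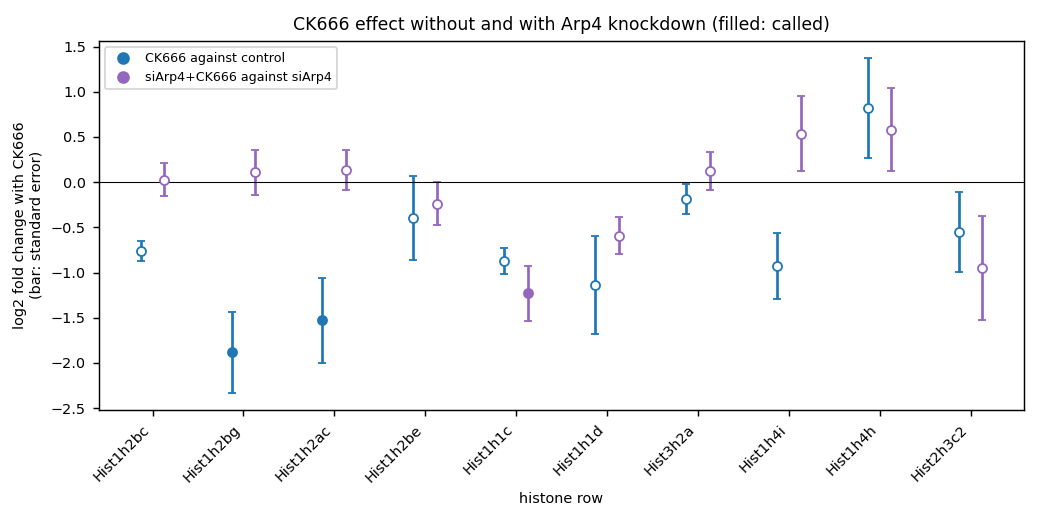
Log2 fold change with CK666, with standard errors, in untransfected cells and in Arp4 knockdown cells for named histone rows, filled where called. Hist1h2bg and Hist1h2ac lie at −1.88 and −1.53 without knockdown and at 0.11 and 0.14 with it, while Hist1h1c is below 0 in both.

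Genes that act with the canonical histones were read from fixed lists. Of 30 DNA replication genes, which are known to peak with histone RNA in S phase, 6 fell and none rose in siArp4, where 9.49% of all genes were called lower, with a median log2 fold change of −0.71 beside the histone median of 1.39. Pcna, the sliding clamp, was at −0.38, the helicase subunit Mcm5 at −0.87 and Rrm2, of ribonucleotide reductase, at −0.61, none of them called. Those that fell included Tk1, thymidine kinase, at −1.83 and the helicase subunits Mcm2 and Mcm6 at −1.34 and −1.24. In siArp4+CK666 against siControl 23 fell and none rose (median −1.29, against 12.4% of all genes called lower). With CK666 or CytoD alone 20 fell and none rose in each (medians −1.12 and −1.18), against 6.06% and 4.32% of all genes. Summed, the list held 1983 to 2123 CPM in siControl, 1295 to 1405 in siArp4 and 841 to 950.3 in siArp4+CK666, while H2B sums were 87.3 to 146, 359 to 439 and 379 to 423 CPM.

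**Figure D5:**
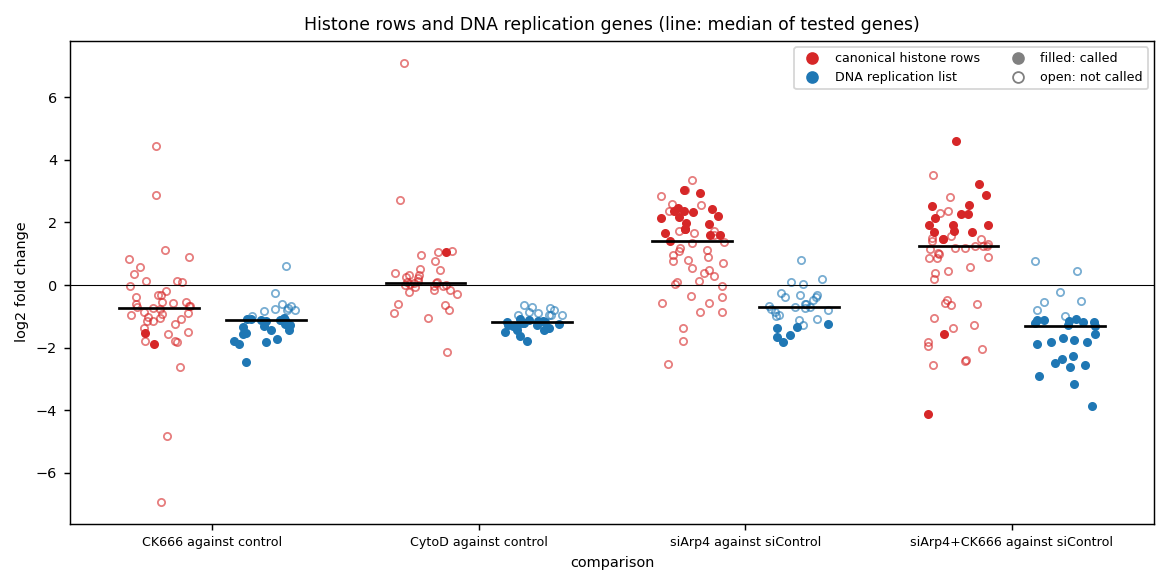
Log2 fold change of each tested canonical histone row and each of 30 DNA replication genes in 4 comparisons, filled where called, with a line at each median. In siArp4 against siControl the histone median is 1.39 and the replication median −0.71, while with CK666 against control they are −0.72 and −1.12.

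Of 17 genes of histone transcription and 3′-end formation, 1 fell in siArp4 and none rose, which is no more than the 9.49% of all genes called lower. It was Cdk2, the kinase that acts with cyclin E, at −1.03, and without siArp4 replicate 1 it was at −0.95, below the fold minimum. Slbp held 936, 1162 and 1246 normalized counts in siControl, 660.3, 594 and 593 with siArp4, and 410.3, 607 and 635 with siArp4+CK666. Both knockdown groups lay below every siControl library and overlapped each other. The log2 fold changes against siControl were −0.86 (DESeq2 adjusted p = 6.2e-04), below the fold minimum, and −1.02, which was called but was no longer past the fold minimum without siControl replicate 2 or 3 or siArp4+CK666 replicate 1 (up to −0.84). Npat and Casp8ap2, which are needed for histone gene transcription, and Lsm11, a part of the U7 particle that cuts histone RNA, were at −0.47, −0.11 and −0.30 in siArp4 and were not called. In CK666 against control 5 of the 17 fell, against 6.06% of all genes, among them Ccne2, cyclin E2, at −2.89 and Casp8ap2 at −1.01. Casp8ap2 dropped below the fold minimum without CK666 replicate 1 or 2 or control replicate 2 or 3 (up to −0.84), and Slbp was at −0.98.

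Histone genes outside the clusters, whose RNA is known to carry a poly(A) tail and mostly to be made through the cell cycle, were read in the same way. Of 11 such genes 3 fell and none rose in siArp4, against 9.49% of all genes called lower. Cenpa, the centromeric H3, held 993, 2408 and 1429 normalized counts in siControl and 343, 307 and 262 in siArp4 (−2.40), H1fx was at −2.93 and H2afx, a variant that marks DNA breaks, at −1.75. Both were uneven among the controls. H1fx held 596, 7891 and 1944 in siControl against 531, 540 and 301 in siArp4, and without siControl replicate 2 its log2 fold change was −1.49 and not called (DESeq2 adjusted p = 0.0130). H2afx held 929.6, 4872 and 2114 against 904, 826 and 625, and its call was lost without siControl replicate 2 (−0.96) or siArp4 replicate 2 or 3 (DESeq2 adjusted p up to 0.0296). The others included H3f3a and H3f3b, which encode the replacement histone H3.3, at 0.39 and −0.53, H2afz at −0.05 and H1f0 at −0.07, none of them called. The 11 genes summed to 3346 ± 294 CPM in siControl and 2861 ± 121 CPM in siArp4. Of 19 histone chaperones and import factors only Chaf1b, of the assembly factor CAF-1, fell in siArp4 (−2.21) and none rose, a share below the 9.49% of all genes, with Asf1b at −0.65 and Nasp at −0.65 below the fold minimum.

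Members were last grouped by features that the rule did not use, as a description. In 23 members an annotated transcript runs at least 100 bases past the stem-loop, a limit chosen after the values were seen. These had a median of 34.3 normalized counts in the second experiment and 10 of 19 tested rose in siArp4. For this and the other siArp4 counts below, 6.69% of all tested genes were called higher. In the 23 whose transcripts end nearer, the median was 10.05 and 5 of 20 rose, and in the 21 without a stem-loop it was 4.46 and 3 of 16 rose. Hist1h1c, Hist1h2ac, Hist1h2be, Hist3h2a and Hist1h1d run 840, 2010, 1861, 1643 and 4884 bases past it. Selection of the RNA for poly(A) tails is not given in the sources used here, so a change in transcript number and a change in the share of transcripts with a tail cannot be told apart. By promoter, 10 of 23 tested members with TATAAA and 6 of 28 without it rose in siArp4, as did 11 of 42 with CCAAT and 5 of 9 without it, and 4 of 9 with the octamer and 12 of 42 without it. Of the 13 head-to-head pairs, 11 had both genes tested. Both genes rose in 2 pairs (Hist1h2ac with Hist1h2bc, and Hist1h2ae with Hist1h2bg) and 1 of the genes rose in 4, and the other 7 pairs had no gene called.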

How the data were processed

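RNA was extracted by the submitters from marrow-derived MSC, and unstranded paired-end libraries were sequenced. The authors quantified reads with Salmon 1.2.1 against GENCODE vM25 on GRCm38 and deposited estimated counts (expected counts) per gene without scaling between samples. For the step from transcripts to genes the sources used here give no method. The table held 54347 rows in 18 columns, each column matched 1 sample by name, and 0 columns were left without a sample. Expected counts were rounded to whole numbers, which changed each total by 277 counts or less. Symbols, coordinates and transcripts were taken from GENCODE vM21 on the same build (54094 identifiers matched, 253 did not).

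DESeq2 1.42.0 in R 4.3.3 (Wald test, default settings, unshrunken fold changes, independent filtering at 0.01, two-sided) was fitted to the 9 libraries of each experiment with the group as the only term, and to 18 libraries for the interaction. All genes were fitted and adjusted together (Benjamini-Hochberg), and members with no adjusted p were counted as not tested. A call needed an absolute log2 fold change over 1 and an adjusted p below 0.01. edgeR 4.0.16 gave the quasi-likelihood test and TMM factors, and limma 3.58.1 came with it. The scripts were tested on simulated counts. Replicates are preparations of 1 primary line, so that p-values measure the spread between preparations and not between animals. Replicates of a group differed by more than counting noise (chi-square per degree of freedom at least 6.79).

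Members were named with their values if they were among the 12 highest in mean normalized count, or among the 3 largest rises or falls of a comparison among called members with a mean of at least 10. Other called members are given by log2 fold change. Of the genes in the pathway lists, Actl6a, Slbp, Npat, Casp8ap2, Lsm11, H2afx, H2afz, H3f3a, H3f3b, H1f0, Cenpa, Nasp, Chaf1b, Asf1b, Pcna, Mcm5, Ccne2 and Rrm2 were chosen in advance of the text, and Tk1, Mcm2, Mcm6, H1fx, Cdk2 and Hist1h2af were named after their values were seen. The members and the lists were chosen with earlier results of these data known, so no test of a list as a whole is given. Near-identical copies were flagged from shared 31-base words, the word length of Salmon, at 20%. The alternatives were another scaling, edgeR, a filter at 10 counts in 3 libraries, a test against a fold change of 2, removal of a length trend, a replicate block, merged copies, other sets of libraries, no fold minimum, leaving out each library, 21-base words and a promoter window of 100 bases.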

Additional observations from a re-analysis of the deposited data

Results flagged for a closer look

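The effect of CK666 on 3 histone rows differed between Arp4 knockdown cells and untransfected cells by the interaction test. The log2 difference was 1.99 for Hist1h2bg, 1.66 for Hist1h2ac and 5.57 for Hist1h2ad. Hist1h2bg and Hist1h2ac were lower in every CK666 library than in every control library, and overlapped between siArp4 and siArp4+CK666. Hist1h2ad had no counts in the CK666 libraries and few in control. The transfection differs between the experiments as well and cannot be told apart from the knockdown.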

How the results depend on the processing

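Of 34 log2 fold changes of named members, 8 kept their call under every alternative tried. The rows of these 8 all lie in merged units, so the alternative of merged copies was not applied to them. Over 602 recomputed values 504 kept the call, 98 lost it and none reversed. The count of called members moved as follows, and the cause was not tested except where fewer rows were tested. In CK666 against control the 2 calls became 1 with edgeR, 0 in the test against a fold change of 2, 5 with the length trend removed, 0 with copies merged, 1 with only the 6 libraries compared, 4 with all 18 libraries, 4 with no fold minimum and 1 to 4 without a library. In CytoD against control the 1 call became 2 with TMM, 2 with the low-count filter, 0 against a fold change of 2, 3 with 6 libraries, 3 with all 18, 3 with no fold minimum and 0 to 3 without a library. CK666 against CytoD (6) gave 0 against a fold change of 2, 2 with copies merged and 3 to 10 without a library. In siArp4 against siControl (18) the counts were 5, 7 and 14 to 19, and 12 with edgeR. In siArp4+CK666 against siControl (17) they were 6, 6 and 14 to 18. In siArp4+CK666 against siArp4 (1) there were 0 calls with edgeR, 0 against a fold change of 2 and 0 to 1 without a library. The interaction (3) gave 1 with edgeR, 0 against a fold change of 2, 6 with the length trend removed, 0 with copies merged and 1 to 4 without a library. The log2 ratio of H2B sums, CytoD against control, was 0.36 with size factors and 0.44 in CPM. In 100 bases before the start TATAAA was found in 19 members and ATTTGCAT in 6.

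The replicate numbers of the labels did not pair the libraries: deviations of same-numbered libraries correlated at −0.10 to 0.11 in the first experiment and −0.35 to 0.59 in the second, and 4 of 9 libraries in each correlated best with their own number. With the replicate number as a block the calls were 1, 4, 20, 17 and 2 in CK666 against control, CK666 against CytoD, siArp4 against siControl, siArp4+CK666 against siControl and siArp4+CK666 against siArp4, and 4 in the interaction. In siArp4 against siControl 19 of these were higher and 1 lower, and in siArp4+CK666 against siArp4 1 was higher and 1 lower. The lower row of the former and the higher row of the latter, called with the block alone, were both Hist2h3c1, a row with counts in 1 of 3 siControl, 0 of 3 siArp4 and 1 of 3 siArp4+CK666 libraries that shares all of its words. Depth limits the low rows most, since 28 members had a mean below 10 normalized counts in both experiments. Reads of near-identical copies limit statements about single rows, and the sums by class do not depend on the split within a class. The H2A, H2B and H3 sums and the Hist2 units still depend on reads shared with predicted genes outside the members. Hist1h1e shared 24.5% of its words with Hist1h2be, so the H1 and H2B sums also depend on that split. Hist3h2a shared 32.1% with Trim17, which bears on the H2A sum.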
